A study of Mus musculus with 11 samples.

Results

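The PPAR and fatty acid genes described here are a list of 37 mouse genes, chosen by name for their place in peroxisome proliferator-activated receptor (PPAR) signalling and in fatty acid uptake, storage, synthesis and oxidation. The table held 19329 gene IDs. Of the 37 genes, 35 had values, while Rxrg and Cpt1b were not analysed here. RNA was sequenced from whole pancreatic islets of male mice at 14 weeks of age, from a C57BL/6N line. The mutant mice, called P33T, were homozygous for a point mutation made with CRISPR-Cas9 that changes an amino acid in the transactivation domain of PDX1, a transcription factor of beta cells. The controls, called wild-type, carried no mutation, and neither group was treated. There were 6 wild-type and 5 P33T libraries. Per the study's methods, islets were kept in culture after isolation and the cohorts were bred by intercrossing homozygous animals, and each biological replicate was collected from several mice. Such breeding gives the genotypes different parents, so genotype and litter cannot be told apart, although the study also calls the controls littermates. The comparison asked whether the expression of these genes in islets differed between the genotypes.

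PPARs are nuclear receptors that bind fatty acids and their derivatives. Each pairs with a retinoid X receptor (RXR) on DNA and raises the transcription of genes that burn, store or carry lipid. In islets, fatty acids are a fuel of the beta cell and also amplify insulin release, and pyruvate dehydrogenase kinases set how far glucose carbon enters the mitochondria when fat is burnt instead. Many of the genes are not particular to endocrine cells: Cd36, Lpl and Fabp4 are also known from endothelial cells, macrophages or fat cells.

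Values were given as FPKM, fragments per kilobase of gene at a common library size. For 34 of the 35 genes the length equalled the union of all annotated exons. Genes with long rare exons read low, so levels and ratios of different genes compare only roughly. A wild-type value can be used only where the row that holds it is known, because the wild-type columns of the deposited table sit on the rows of other genes. That was so for 13 of the 35 genes. Rows of Pdk4, Acadl and Acadvl were found from read counts that the authors list for the genes with the lowest p-values in their own comparison, so these 3 genes are in the comparison because their p was low there. Rows of Ppard, Cpt1a, Fabp4, Cd36, Acadm, Lpl, Ucp2, Acaca, Fasn and Acsl1 were found from gene length and level, a match that cannot show a change beyond 4-fold. The other 22 genes are described in P33T islets only. For 4 of them (Hadha, Ppargc1a, Acacb and Angptl4) no searched wild-type row of the right length lay within 16-fold of the P33T level. Only wild-type rows with a gene ID, at least 100 reads in all and values in at least 80% of libraries were searched. The gene itself needed as many reads over the P33T libraries. Ppargc1a, Acacb and Angptl4, with at most 31 reads per P33T library, fell short of that and could not be matched at all. A wild-type row as low as theirs could also be missed. Why no row was found for Hadha was not tested.

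Libraries held 19311937 to 37094286 counted reads. Islet hormones dominated them: 9 endocrine markers together reached 232622 to 306300 FPKM in wild-type and 265051 to 360459 FPKM in P33T libraries. P33T replicate 2 stood apart, being the highest or lowest of its group in 78.3% of 11190 gene IDs at 1 FPKM or more, and so did wild-type replicate 3, whose median correlation with its own group was 0.961 against 0.976 to 0.983 for the other wild-type libraries. Wild-type replicate 2 stood apart in its fibroblast markers, given below with Cd36. Acinar markers moved with P33T replicate 2: all 12 summed to 129.9 FPKM there and to 12.0 to 24.2 FPKM in the other P33T libraries. Fat cells could hardly be checked. Of 8 adipocyte markers 7 were not analysed here, and the remaining gene, Cidec, which coats lipid droplets, lay between 0 and 0.1002 FPKM in P33T libraries and had no known wild-type row.

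None of the 13 compared genes was called between genotypes at an adjusted p of 0.05 or less and a 1.5-fold difference (limma with Benjamini-Hochberg adjustment over all 19329 gene IDs). Over the 5442 genes in the fit, 0.0368% were called higher and 0.0368% lower in P33T. Among the 13 genes 5 lay higher and 8 lower in P33T, and their median log2 fold change was -0.065, beside -0.054 over all genes in the fit. At an unadjusted p under 0.05, 3 of the 13 were higher (background 14.5%) and 0 were lower (background 16.2%). In 1 gene every P33T value exceeded every wild-type value (background 2.15%), and in 0 genes the reverse was so (background 2.22%). The 3 were Pdk4, Acadl and Acadvl, the same genes whose rows were found from the authors' list. Among all genes found that way 38.5% were higher and 47.8% lower at an unadjusted p under 0.05, and the list's 3 genes are read against that share. Of the 10 genes found by length and level, 0 had an unadjusted p under 0.05, beside 3.54% higher and 1.79% lower among all genes found so.

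**Figure D1:**
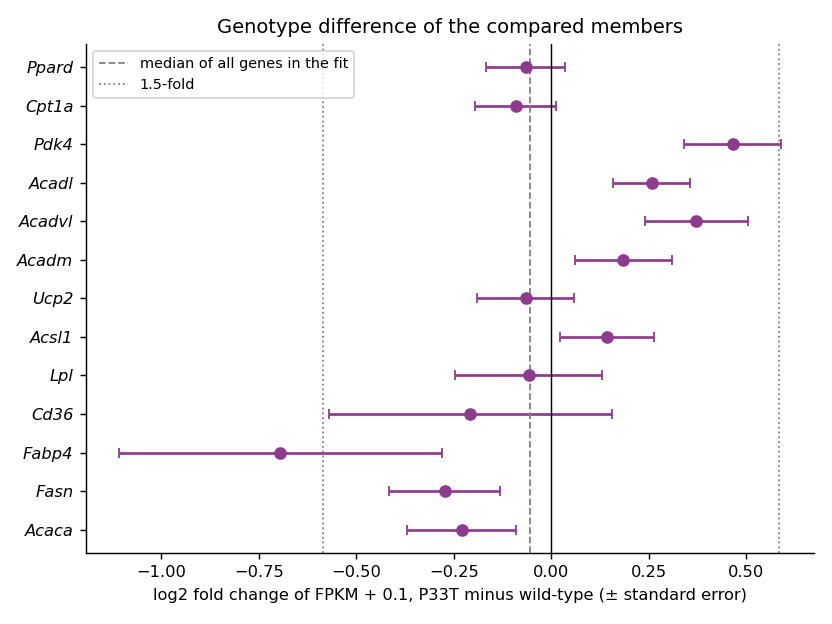
Difference between genotypes for the 13 compared genes, as the log2 fold change of FPKM + 0.1 (P33T minus wild-type) with its standard error. The dashed line is the median of all genes in the fit, -0.054, and the dotted lines mark 1.5-fold. Pdk4 and Acadvl lie farthest to the right, Fabp4 lies farthest to the left with the widest error, and the other genes lie between -0.27 and 0.26.

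The receptors were expressed at moderate levels with 1 exception. Pparg, the receptor known for driving fat storage, had 5.40 ± 0.581 FPKM (SD, n = 5) in P33T islets, and Ppard, the widely expressed member, had 5.16 ± 0.680 FPKM. Which of these stood higher depended on the library: the ratio of Pparg to Ppard ran from 0.887 to 1.19. Ppara, the receptor that drives fatty acid oxidation in liver, was at 0.054 ± 0.018 FPKM, which rests on 3 to 10 reads per library, and Pparg exceeded it 74.4-fold to 178-fold in the 5 libraries. Among the RXR partners, Rxrb at 9.95 ± 1.91 FPKM was above Rxra at 8.46 ± 1.42 FPKM in 5 of 5 libraries, with a ratio of 1.08 to 1.24. FPKM divides by gene length, and the length recovered for Rxra differed from its annotated exons, so an order this close is uncertain. Ppargc1a, which encodes a coactivator of PPARs that promotes mitochondrial gene expression, had 0.101 ± 0.045 FPKM from 9 to 31 reads.

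Of the receptors, Ppard was the only one with known wild-type values. It ran from 4.79 to 5.83 FPKM with a median of 5.47 in wild-type libraries. The P33T libraries 1 to 5 had 5.38, 4.02, 5.17, 5.83 and 5.39 FPKM. The groups overlapped, and P33T replicate 2 was the lowest of the 11 libraries. On the log2 scale the difference was -0.065 ± 0.102 (SE, adjusted p = 1, limma), and without P33T replicate 2 it was 0.020.

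Pyruvate dehydrogenase kinases block the entry of pyruvate into the citric acid cycle, and Pdk4 is a textbook PPAR target. Wild-type libraries had 1.91 to 3.18 FPKM of Pdk4, with a median of 2.83. P33T libraries 1 to 5 had 3.29, 3.79, 3.60, 3.92 and 4.15 FPKM. All 5 P33T values lay above all 6 wild-type values, which no other compared gene of the list showed. Among all genes found from the authors' list, 6.03% lay wholly above in this way and 6.44% wholly below. Means were 2.71 ± 0.446 (SD, n = 6) and 3.75 ± 0.324 FPKM (n = 5), a ratio of 1.38. On the log2 scale the difference was 0.47 ± 0.125 (SE), with an adjusted p of 0.497 (limma). The exact two-sided permutation test, over 462 assignments of the libraries to genotypes, gave p = 0.0043, for a gene that was placed because its p was low. In every fit that left out a single library Pdk4 stayed higher in P33T, with log2 fold changes between 0.37 and 0.51. Without wild-type replicates 2 and 3 and P33T replicate 2 together, a choice made after seeing the data, it was 0.35.

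The related kinases were measured in P33T islets only. Pdk2, the most widely expressed kinase of the family, had 9.06 ± 1.595 FPKM and exceeded Pdk4 1.72-fold to 2.96-fold. Pdk1, a kinase induced by low oxygen, had 3.38 ± 0.671 FPKM and was close to Pdk4, with a ratio of Pdk4 to Pdk1 of 0.835 to 1.29. P33T replicate 2 held the highest Pdk1, 4.54 FPKM, and the lowest Pdk2, 6.54 FPKM.

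Long-chain fatty acids enter mitochondria through the carnitine shuttle. Its gatekeeper at the outer membrane, Cpt1a, ran from 4.26 to 5.93 FPKM with a median of 4.69 in wild-type libraries. In P33T libraries it was at 4.41, 3.82, 4.82, 4.72 and 4.89 FPKM. The P33T values lay inside the wild-type range except for replicate 2 at the low end. Between genotypes the log2 fold change was -0.091 ± 0.104 (SE, adjusted p = 1, limma). Cpt2, the inner membrane enzyme that hands the acyl group back to coenzyme A, had 25.2 ± 2.14 FPKM in P33T islets, 4.91-fold to 5.96-fold above Cpt1a. The length divided by was 2391 bases for Cpt2 and 7642 bases for Cpt1a, and its part in this ratio was not tested.

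The acyl-CoA dehydrogenases carry out the opening step of beta-oxidation, each on a range of chain lengths. Of the 3 dehydrogenase genes in the list, each had a higher mean in P33T and none was called. Acadl, which acts on long chains, was 13.5 to 17.98 FPKM in wild-type libraries with a median of 14.0. P33T libraries 1 to 5 had 15.9, 19.97, 17.5, 15.6 and 18.5 FPKM. All P33T values were above 5 of the 6 wild-type libraries, and wild-type replicate 1, at 17.98 FPKM, overlapped them. The means of 14.6 ± 1.69 and 17.5 ± 1.84 FPKM gave a log2 fold change of 0.26 ± 0.098 (SE, adjusted p = 0.497, limma).

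Acadvl, the very-long-chain dehydrogenase of the inner membrane, showed a similar pattern. Wild-type values ran from 5.93 to 10.8 FPKM with a median of 7.65. P33T values were 9.26, 11.2, 10.4, 9.15 and 10.7 FPKM, and again only wild-type replicate 1, at 10.8 FPKM, reached into the P33T range. The genotypes differed by a log2 fold change of 0.37 ± 0.133 (SE, adjusted p = 0.497, limma). Leaving out the same 3 libraries, which stand apart, brought it to 0.21 and that of Acadl to 0.17. Leaving out wild-type replicate 1 alone brought them to 0.47 (adjusted p = 0.1585, limma) and 0.32 (adjusted p = 0.1701, limma).

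Acadm, the medium-chain dehydrogenase, was 3.00 to 4.44 FPKM in wild-type libraries with a median of 3.49. P33T libraries had 3.67, 5.36, 4.04, 3.74 and 3.63 FPKM. The groups overlapped, and P33T replicate 2 was the single high value. The log2 fold change was 0.19 ± 0.124 (SE, adjusted p = 1, limma), and 0.085 without P33T replicate 2. In P33T islets Acadl exceeded Acadvl by 1.68-fold to 1.79-fold, a narrow span over the 5 libraries.

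Hadha and Hadhb encode the subunits of the trifunctional protein, which completes beta-oxidation of long chains. Both were measured in P33T islets only, at 13.3 ± 1.42 and 12.3 ± 1.91 FPKM. The subunits had similar levels, with Hadha above Hadhb in 4 of 5 libraries. In P33T replicate 2 the order turned, with 10.9 FPKM of Hadha and 15.5 FPKM of Hadhb.

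The sequences upstream of the 4 genes with the highest fold changes are shown because Pdk4 and the dehydrogenase genes are known PPAR targets and PPAR-RXR pairs bind repeats of the hexamer AGGTCA. They are from RefSeq (GRCm38.p6, an earlier build than the GRCm39 of the reads), written 5′ to 3′ on the gene's strand, and cover bases 250 to 51 before the annotated start. All 4 genes lie on the minus strand. Capitals mark AGGTCA or its reverse complement TGACCT.
Pdk4, chr6:5496329-5496528: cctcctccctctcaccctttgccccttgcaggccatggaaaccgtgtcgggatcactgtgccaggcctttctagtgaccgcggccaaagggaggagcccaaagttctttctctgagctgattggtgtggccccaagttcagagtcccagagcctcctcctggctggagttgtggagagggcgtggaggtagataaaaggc
Acadl, chr1:66863360-66863559: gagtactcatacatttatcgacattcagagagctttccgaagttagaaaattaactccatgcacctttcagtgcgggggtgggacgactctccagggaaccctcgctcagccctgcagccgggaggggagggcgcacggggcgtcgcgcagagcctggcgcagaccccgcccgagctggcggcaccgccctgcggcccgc
Acadvl, chr11:70015479-70015678: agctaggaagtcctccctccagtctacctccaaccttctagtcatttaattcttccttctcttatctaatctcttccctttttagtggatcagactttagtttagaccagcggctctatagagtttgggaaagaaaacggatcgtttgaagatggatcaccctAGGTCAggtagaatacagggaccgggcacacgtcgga
Acadm, chr3:153944694-153944893: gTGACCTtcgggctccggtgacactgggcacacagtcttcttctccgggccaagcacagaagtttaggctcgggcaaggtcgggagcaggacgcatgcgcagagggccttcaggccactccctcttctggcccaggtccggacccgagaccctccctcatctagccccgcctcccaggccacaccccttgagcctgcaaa
The hexamer occurred once upstream of Acadvl, starting 87 bases before the gene, and once upstream of Acadm, starting 249 bases before it. It was absent from these windows of Pdk4 and Acadl. Of the 37 genes 30 had an upstream sequence in the table, and 7 of these held the hexamer on either strand in at least 1 promoter (Acadm, Acadvl, Cd36, Cpt1a, Plin2, Rxra and Rxrg). Counted by promoter this was 17.1% of 41, beside 11.4% of all 32851 promoters. The direct repeat AGGTCANAGGTCA was found in 0 of the 41 and in 0.0244% of all promoters.

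**Figure D2:**
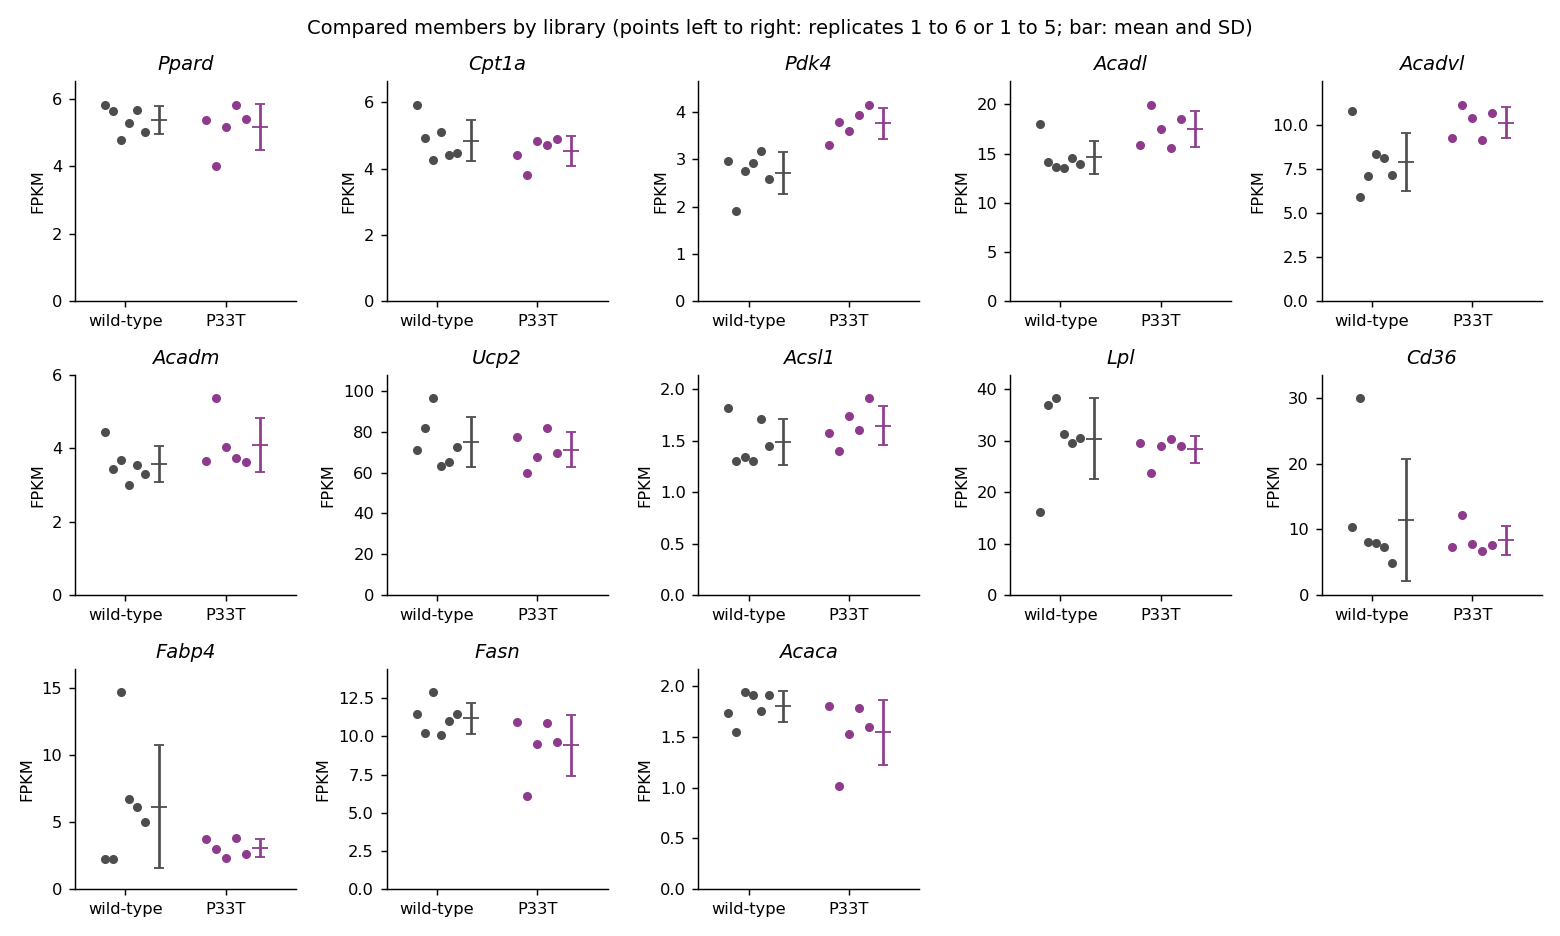
FPKM of the 13 compared genes in each library, with wild-type in grey and P33T in purple, replicates from left to right, and the mean and SD beside the points. Pdk4 is the only panel in which all purple points lie above all grey points, and single libraries stand far from the rest in Cd36, Fabp4, Lpl and Acadm.

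Ucp2, which encodes a mitochondrial carrier that dampens insulin release, had the highest FPKM of the list. Its P33T range was clear of the next gene, Lpl, and it exceeded Lpl 2.34-fold to 2.70-fold. Wild-type libraries had 63.2 to 96.3 FPKM with a median of 71.7. P33T libraries had 77.5, 59.8, 67.7, 81.8 and 69.6 FPKM. The groups overlapped, with a log2 fold change of -0.066 ± 0.124 (SE, adjusted p = 1, limma).

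Acyl-CoA synthetases activate fatty acids for either fate. Acsl4, which prefers arachidonic acid, had 6.02 ± 0.669 FPKM in P33T islets. Acsl1, the main form in fat and liver, had 1.65 ± 0.189 FPKM and Acsl3, the form tied to lipid droplets, had 1.59 ± 0.252 FPKM. Acsl4 stood above Acsl1 by 3.25-fold to 4.85-fold. Acsl1 was also compared: wild-type libraries had 1.30 to 1.81 FPKM with a median of 1.39, and P33T libraries had 1.58, 1.40, 1.74, 1.60 and 1.91 FPKM. These ranges overlapped, with a log2 fold change of 0.14 ± 0.120 (SE, adjusted p = 1, limma).

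The genes of fatty acid uptake showed the widest spread between wild-type libraries. Fabp4, a fatty acid carrier of fat cells, capillaries and macrophages, was 2.21 to 14.7 FPKM in wild-type libraries with a median of 5.55. P33T libraries had 3.75, 2.97, 2.32, 3.81 and 2.61 FPKM. The P33T values lay in the lower part of the wild-type range, with wild-type replicates 1 and 2 below all of them and replicates 3 to 6 above all of them. The means were 6.16 ± 4.60 and 3.09 ± 0.669 FPKM, and the log2 fold change was -0.69 ± 0.414 (SE, adjusted p = 0.864, limma). Without wild-type replicate 3 it was -0.39.

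Cd36, the membrane receptor that takes up fatty acids, was 4.88 to 29.9 FPKM in wild-type libraries with a median of 7.95. P33T libraries had 7.33, 12.2, 7.83, 6.70 and 7.68 FPKM. Wild-type replicate 2 held the 29.9 FPKM and the other wild-type libraries reached at most 10.3 FPKM. On the log2 scale the difference was -0.21 ± 0.363 (SE, adjusted p = 1, limma), and without wild-type replicate 2 its sign turned, to 0.12.

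Lpl, the lipase that frees fatty acids from circulating lipoproteins, was 16.1 to 38.2 FPKM in wild-type libraries with a median of 30.9. P33T libraries had 29.5, 23.6, 28.9, 30.3 and 29.0 FPKM. They lay inside the wild-type range, in which replicate 1 was the low value. Between genotypes the log2 fold change was -0.058 ± 0.189 (SE, adjusted p = 1, limma), and leaving out wild-type replicate 2, wild-type replicate 3 or P33T replicate 2 turned its sign, to at most 0.018.

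The coefficient of variation between wild-type libraries was 81.1% for Cd36, 74.7% for Fabp4 and 25.8% for Lpl. The median was 14.8% over 4065 genes at 1 FPKM or more, of which 99.6% varied less than Cd36 and 99.0% less than Fabp4. The other 10 compared genes lay between 7.62% (Ppard) and 20.9% (Acadvl).

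Markers of other islet cells moved with these genes in some libraries and not in others. All 8 compared endothelial markers of a list of 10 had a lower mean in P33T, with a median log2 fold change of -0.69 and 0 called. Their summed level was 65.5 to 324 FPKM in wild-type libraries (median 122.5) and 50.5 to 109.8 FPKM in P33T libraries (median 75.1). Wild-type replicate 3, which held the highest Fabp4, also held the highest endothelial sum, and wild-type replicate 1 was lowest in that sum, in Fabp4 (with replicate 2) and in Lpl. The 4 compared macrophage markers of 10 also had lower means in P33T, but the rows of all 4, and of 3 of the 8 endothelial markers, were found from the authors' list of low p-values. Their sum was 23.1 to 59.3 FPKM in wild-type (median 29.9), with replicates 2 and 3 high, and 18.1 to 28.2 FPKM in P33T (median 24.8). The 4 compared fibroblast markers of 8 summed to 1.46 to 27.1 FPKM in wild-type and 1.92 to 3.23 FPKM in P33T, and the 27.1 FPKM was in wild-type replicate 2, the library with the highest Cd36. Other libraries went the other way. P33T replicate 2 had the next highest Cd36, 12.2 FPKM, with the lowest sums of the compared endothelial and macrophage markers. Over all 10 macrophage markers, summed in P33T libraries alone, it was not the lowest. It had 148.2 FPKM there, in a P33T range of 141.3 to 166.1 FPKM. Wild-type replicate 2 had the highest sum of the compared macrophage markers with only 2.21 FPKM of Fabp4. Lpl differed by -0.058 on the log2 scale where the endothelial median was -0.69. The part of these cells in the values of Fabp4, Cd36 and Lpl was not tested. In whole islets, fewer cells of a type and less RNA per cell cannot be told apart.

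**Figure D3:**
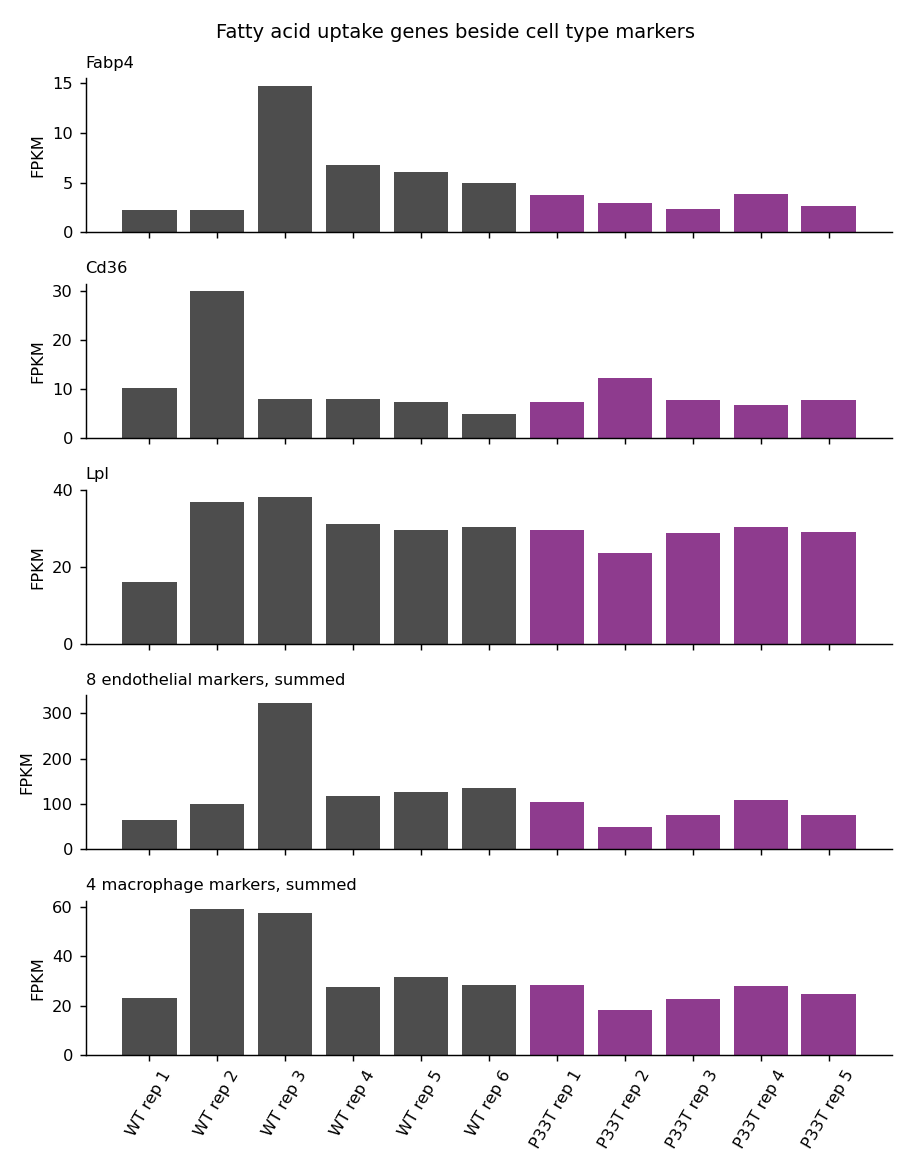
FPKM of Fabp4, Cd36 and Lpl in the 11 libraries (wild-type grey, P33T purple), above the summed FPKM of 8 endothelial and 4 macrophage markers in the same libraries. Wild-type replicate 3 is highest in Fabp4 (14.7) and in the endothelial sum (324), while Cd36 peaks in wild-type replicate 2 (29.9), where the macrophage sum is 59.3.

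Fabp5, the carrier known from skin and macrophages, had 1.90 ± 0.543 FPKM in P33T islets, below Fabp4 in 5 of 5 libraries. Angptl4, a secreted inhibitor of LPL and a strong PPAR target in fat and muscle, was at 0.098 ± 0.074 FPKM, from 1 to 18 reads per library. The P33T values of Angptl4 ran from 0.0088 to 0.206 FPKM, while the P33T values of Lpl were 23.6 FPKM or more.

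Lipid droplet genes were measured in P33T islets only. Plin2, the main droplet coat of tissues other than fat, had 11.2 ± 0.740 FPKM, the smallest relative spread of the 35 genes at 6.62%. It stood 4.26-fold to 5.03-fold above Plin3, a coat protein that shuttles between cytosol and droplets, at 2.40 ± 0.245 FPKM. Pnpla2, which encodes the lipase of the opening step of triglyceride breakdown, had 23.4 ± 3.44 FPKM. Lipe, the hormone-sensitive lipase that acts after it, had 0.774 ± 0.182 FPKM, and Pnpla2 exceeded it 24.4-fold to 37.3-fold.

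The lipogenic genes with known wild-type values, Fasn and Acaca, both had lower means in P33T, and neither was called. Fasn, the fatty acid synthase, was 10.1 to 12.9 FPKM in wild-type libraries with a median of 11.2. P33T libraries 1 to 5 had 10.96, 6.07, 9.52, 10.9 and 9.63 FPKM. Replicate 2 was far below the rest, and 2 of the other 4 P33T libraries lay inside the wild-type range. The genotypes differed by a log2 fold change of -0.27 ± 0.142 (SE, adjusted p = 0.696, limma), and -0.12 without P33T replicate 2.

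Acaca, the acetyl-CoA carboxylase that supplies malonyl-CoA for synthesis, was 1.54 to 1.94 FPKM in wild-type libraries with a median of 1.83. P33T libraries had 1.81, 1.01, 1.53, 1.78 and 1.60 FPKM, again with replicate 2 lowest. The log2 fold change was -0.23 ± 0.140 (SE, adjusted p = 0.887, limma) and -0.096 without that library. Fasn and Acaca kept step across the P33T libraries, with a ratio of 5.98 to 6.23.

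Acacb, the carboxylase of the mitochondrial surface whose product restrains CPT1, had the lowest mean of the list, with a range that overlapped that of Ppara, at 0.028 ± 0.018 FPKM from 3 to 14 reads. Acaca exceeded it 33.4-fold to 142-fold. Of the stearoyl-CoA desaturases, which make monounsaturated fatty acids, Scd2 had 19.7 ± 2.62 FPKM and Scd1 0.890 ± 0.091 FPKM, so that Scd2 stood 17.2-fold to 27.7-fold higher. Scd1 could be compared only with a looser match of rows (within 2-fold, no other row within 4-fold): wild-type libraries then had 0.377 to 1.40 FPKM and the log2 fold change was 0.30 ± 0.226 (SE, adjusted p = 1, limma). Srebf1, the transcription factor of lipogenic genes, had 16.1 ± 1.43 FPKM in P33T islets.

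**Figure D4:**
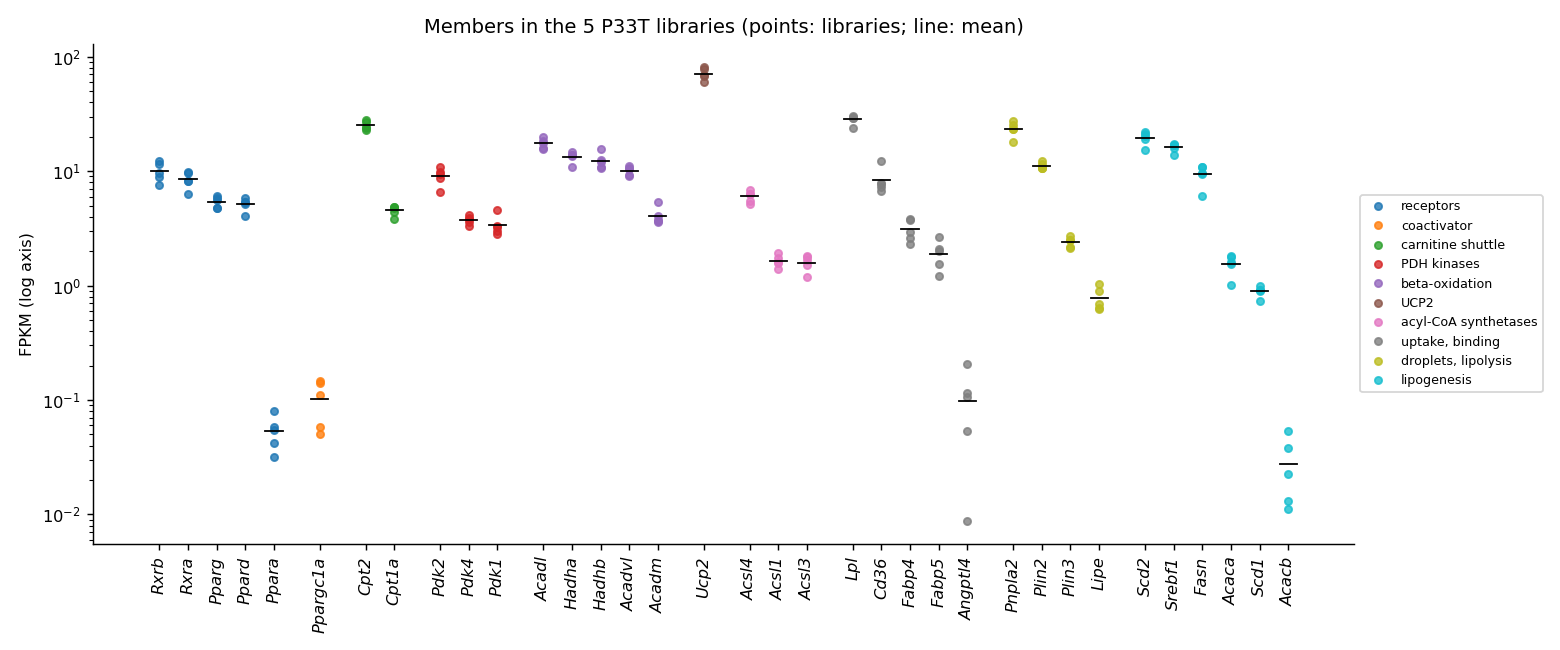
FPKM of the 35 genes in the 5 P33T libraries on a log axis, grouped by role, with a line at each mean. Ucp2 lies highest at 71.3, most genes lie between 1 and 30, and Ppara, Ppargc1a, Angptl4 and Acacb lie near or below 0.1.

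Across the list in P33T islets, 11 genes lay above 10 FPKM, 18 between 1 and 10 and 6 below 1 FPKM. In the order of levels only 3 of 34 neighbouring pairs had ranges that did not overlap: Ucp2 above Lpl, Acaca above Scd1, and Lipe above Ppargc1a. All other neighbours could not be ordered beyond their spread.

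Of the 29 genes at 1 FPKM or more, P33T replicate 2 was the highest of its group in 8 and the lowest in 15, together 79.3%, beside 78.3% of all gene IDs at that level. The list was thus like the table as a whole. Its log2 ratio to the mean of the other P33T libraries ran from -0.76 (Fasn) to 0.72 (Cd36) among the 29 genes. The Spearman correlation of the ratio with gene length was -0.365 over the 29 genes and -0.291 over 11190 gene IDs, described across genes of 1 library, which share its depth and composition. Over all gene IDs the same correlation had the opposite sign in replicate 3 (0.394) and replicate 5 (0.390). Over the 29 genes it was 0.122 and 0.172 in these libraries. Each was set against the other 4 libraries, replicate 2 among them, so the values cannot show whether the trend is particular to replicate 2. The acinar sum was also highest in P33T replicate 2, and the part of either in the results was not tested.

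**Figure D5:**
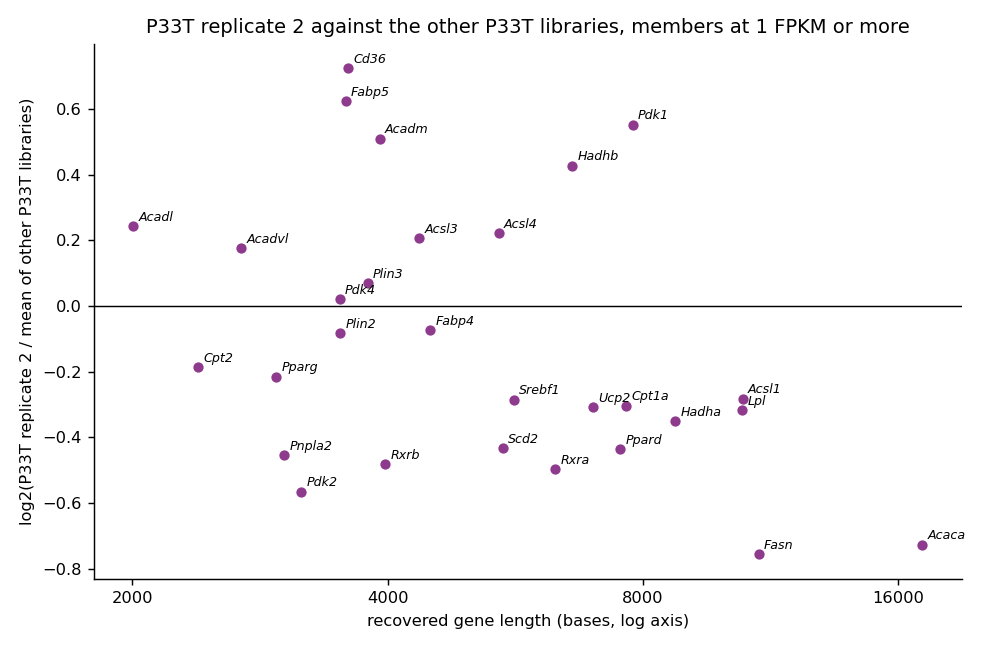
Log2 ratio of P33T replicate 2 to the mean of the other P33T libraries against gene length (log axis) for the 29 genes at 1 FPKM or more. Fasn (-0.76) and Acaca (-0.73), which are among the longest genes, lie lowest, and Cd36 (0.72) lies highest.

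The wider pathway was described from a list of 132 further genes, of which 33 had known wild-type rows. None was called in either direction. Means were higher in P33T for 20 genes and lower for 13, beside 2597 higher and 2845 lower of all 5442 genes in the fit. The median log2 fold change was 0.13, beside -0.054 over all genes in the fit and 0.0485 over those with a mean of at least 1 FPKM. Of 8 further beta-oxidation genes 6 lay higher, with a median of 0.18, and the same held for 8 further lipogenesis genes (6 higher, median 0.18). Higher means were also found in 3 of 4 uptake and activation genes and in 4 of 6 further PPAR targets. They were found in 1 of 5 PPAR partners and 0 of 2 lipid droplet and lipolysis genes. At an unadjusted p under 0.05, 3 of the 33 genes were higher and 4 lower, beside 14.5% and 16.2% of all genes in the fit. These 7 are named here after their values were seen, and the rows of 5 of them (Acat1, Elovl6, Ffar1, Fads3 and Pltp) came from the authors' list of low p-values. Acat1, the mitochondrial thiolase of ketone and isoleucine metabolism, had 15.4 ± 3.52 FPKM in wild-type and 21.1 ± 6.16 FPKM in P33T. Acly, which makes cytosolic acetyl-CoA from citrate, had 198.5 ± 58.9 and 254.0 ± 23.7 FPKM. Elovl5, an elongase of polyunsaturated fatty acids, had 31.6 ± 5.56 and 37.9 ± 3.60 FPKM.

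Elovl6, the elongase of palmitate, lay lower in P33T, with 3.64 ± 0.544 FPKM in wild-type and 2.91 ± 0.195 FPKM in P33T. Ffar1, the fatty acid receptor of beta cells, had 42.5 ± 14.2 and 29.7 ± 6.23 FPKM. Fads3, a desaturase of the sphingolipid pathway, had 1.47 ± 0.716 and 0.805 ± 0.162 FPKM, and Pltp, a phospholipid transfer protein, 3.61 ± 1.86 and 1.95 ± 0.407 FPKM. In each of these 7 genes the groups overlapped, and their adjusted p lay between 0.497 and 0.574 (limma).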

How the data were processed

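Libraries of mRNA were made from total RNA of whole islets. Per the submitters' processing notes, reads were cleaned with fastp 0.23.1, aligned with HISAT2 2.0.5 to GRCm39 (mm39) and counted with featureCounts 1.5.0-p3. Whether the libraries keep strand was not given in the sources used here, as both kinds of preparation are named. The authors deposited FPKM for 6 wild-type and 5 P33T libraries, with genes kept where at least 80% of the libraries of a genotype had a value. A gene listed at 0 in all P33T libraries failed this in P33T.

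Of the deposited rows, 6070 had no gene ID, and the wild-type FPKM columns did not line up with the gene IDs. Wild-type rows were put back in 2 ways. For 1748 genes the row was found from read counts, rounded to whole reads, in the held part of a supplementary table of the authors. That table is sorted by their p-value, and where no count was equal a small tolerance was allowed. For 3734 genes it was found from the gene length recovered from the FPKM steps and from level: group means within 4-fold, no rival row or gene of equal length within 16-fold, and at least 100 reads per genotype. On genes known by reads this match was right for 510 and wrong for 1. With a gene's own row taken away, 0.453% of 1547 genes were matched to another row. Recovered lengths of 34 of the 35 genes with values, all but Rxra, equalled the union of exons in GENCODE vM21. As FPKM divides by that union, genes with long rare exons read low.

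Differences were fitted with limma 3.58.1 (trend and robust options, R 4.3.3) on log2(FPKM + 0.1) over 5442 genes. Fold changes are on that scale, which understates changes of low genes. The Benjamini-Hochberg adjustment ran over 19329 gene IDs and took unplaced genes as unchanged. Calls required an adjusted p no higher than 0.05 together with a 1.5-fold difference. Single genes also had exact permutation tests over 462 splits. The fit was tested on simulated data. The study describes the libraries as biological replicates, each collected from several mice, so p-values measure the spread between pools of islets. Genes and lists were chosen with earlier results of these data known. All 37 genes were to be named, with further pathway genes named where called or where groups did not overlap at a mean of 1 FPKM or more. Alternatives were other pseudocounts, scaling, filters, thresholds, matching rules, replicate blocks and leaving out each library. The authors' own fold changes and p-values were not used as values.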

Additional observations from a re-analysis of the deposited data

Results flagged for a closer look

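Within groups of 4 to 10 libraries, 7 of the 48 groups tested (35 genes in P33T and 13 in wild-type) held a library far from the others by Dixon's test, which chance alone flags in about 1 of 20 groups. The share flagged over all genes was not computed, and the groups share libraries, so the count cannot be read as a trait of the list. P33T replicate 2 accounted for 4 of the 7, with Pdk1 at 4.54, Cd36 at 12.2 and Acadm at 5.36 FPKM above the other P33T libraries and Lpl at 23.6 FPKM below them. That library was the highest or lowest of its group in 78.3% of all gene IDs at 1 FPKM or more. The nearest other P33T library had 3.30 FPKM of Pdk1, 7.83 of Cd36, 4.04 of Acadm and 28.9 of Lpl. In wild-type islets, Acadl in replicate 1 had 17.98 FPKM beside 14.6 in the nearest library, Cd36 in replicate 2 had 29.9 FPKM beside 10.3, and Fabp4 in replicate 3 had 14.7 FPKM beside 6.74. The endothelial sum of wild-type replicate 3 was 324 FPKM and the fibroblast sum of wild-type replicate 2 was 27.1 FPKM, each the highest of all libraries, and their part in these values was not tested.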

How the results depend on the processing

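The counts of 0 called genes, for the list and for the further pathway genes, held under every alternative run, and the 3 genes with an unadjusted p under 0.05 kept their direction throughout. The median log2 fold change of the compared genes moved from -0.065 to 0.37 with rows found by reads only, where 3 genes remain, and ranged from -0.11 to 0.010 over the fits that left out a single library. Signs turned in Lpl, Cd36, Ucp2 and Ppard. Lpl ran from -0.23 to 0.018, Cd36 from -0.40 to 0.12, Ucp2 from -0.12 to 0.0097 and Ppard from -0.11 to 0.020 over those fits. Among them Lpl was 0.0078 without wild-type replicate 2, 0.018 without wild-type replicate 3 and 0.0052 without P33T replicate 2. Without all 3 libraries that stand apart, an alternative chosen after seeing the data, Lpl was 0.18, Cd36 0.0049, Ucp2 0.12 and the median of the list 0.089. The cause was not tested.

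The replicate numbers of the titles or library names did not pair the samples: deviations of same-numbered libraries correlated between -0.565 and 0.124, and no library correlated best with its own number. With a replicate block by the library names the log2 fold change of Lpl was 0.018 and that of Ucp2 0.0097, Pdk4 was 0.47 (adjusted p = 1, limma), and 0 genes of the list were called with either block. Over all genes the calls were 2 higher and 2 lower, 6 and 7 when p-values were adjusted over the genes in the fit alone, 0 and 1 with the block by titles, and 3 and 5 without wild-type replicate 1. Precision is limited by 6 and 5 libraries, by the match within 4-fold and, for Ppara, Acacb, Angptl4 and Ppargc1a, by at most 31 reads per library.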
